A study of Arabidopsis thaliana with 47 samples.

Results

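The transcripts described here come from the genome of the plastid, the organelle that is a green chloroplast in leaf cells. They were taken as every locus whose identifier starts with ATCG, counted at its lowest-numbered splice variant, which gave 88 of the 28197 loci counted in the series. Of these, 31 carry a gene name in the sources used here, and the other 57 are given by identifier only. All 47 libraries were made from Arabidopsis thaliana Columbia-0 (Col-0) and sequenced as mRNA libraries. Leaf protoplasts, which are cells freed of their walls, were followed while they returned to division and formed callus. Day 14 MB-3, Day 14 control, Day 0 and leaf samples formed replicates 1 to 3 (3 libraries each), leaf samples being rosette leaves 23 days after sowing and Day 0 samples freshly isolated mesophyll protoplasts. Replicates 4 to 8 held Day 2, Day 4 and Day 6 control cultures, Day 4 and Day 6 cultures with yucasin or MB-3 (3 libraries each) and 5 Day 0 libraries. Replicates 9 to 11 held 3 Day 4 cultures without 2,4-D, 3 Day 4 control cultures and 3 Day 0 libraries. All cultures stood in medium with thidiazuron, a cytokinin, at 176 µg/L, and with the auxin 2,4-D at 1 mg/L except where it was left out. MB-3 inhibits histone acetyltransferases, and yucasin inhibits the YUCCA enzymes of auxin synthesis. Plants had grown in continuous light and cultures were kept in the dark, so light and culture cannot be told apart. Each protoplast sample pooled cells from many leaves, and no label says that the replicates were separate cultures, so p-values measure the spread between these libraries.

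The plastid genome encodes core subunits of both photosystems, of the ATP synthase, of the cytochrome b6f and NDH complexes and of the plastid ribosome, and the large subunit of Rubisco. It is transcribed by a bacterial-type RNA polymerase (PEP), whose core is plastid-encoded and whose sigma factors and associated proteins come from the nucleus, and by phage-type polymerases (NEP) that are wholly nuclear-encoded. Photosynthesis genes such as psbA and RBCL are read mainly by PEP in green tissue. Many plastid genes are transcribed together and cut apart later. Plastid mRNA has no stable poly(A) tail, and tails added to it mark RNA for decay, while an mRNA library is made by binding to runs of A. The counts therefore measure the plastid RNA that passed this selection, and a share of library counts is not the share of plastid RNA in a cell.

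The libraries held 4.50 to 19.7 M counts (M, counts in units of 10 to the sixth power), of which 30230 to 502157 were plastid counts. In 7 pairs, plastid loci of the inverted repeat had identical counts in every library, so the 88 loci give 81 distinct rows and the pairs made up 10.7% to 26.2% of plastid counts. Counts of called loci include both loci of a pair unless distinct rows are named. In the tests, 82 loci passed the filter on low counts in replicates 1 to 3, 86 in replicates 4 to 8 and 83 in replicates 9 to 11, and no locus left out had more than 39 counts in any library. Summed mesophyll markers stood at 655 to 2865 CPM (counts scaled to a common library total) in Day 0 libraries, against 13356 to 27557 CPM in leaf. Epidermis markers stood at 0.439 to 3.60 CPM in Day 0 libraries, against 301 to 437 CPM in leaf, and phloem markers at 5.31 to 16.5 CPM, against 840 to 1174 CPM. Leaf samples thus held other cell types, and in bulk samples fewer cells of a type and less RNA per cell cannot be told apart. The Day 0 libraries of replicates 1 to 3 stood apart from the other 8, and each comparison was kept within its own replicates.

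Among the 29 named loci matched to a RefSeq coding sequence (TAIR10.1), ATPB, the beta subunit of ATP synthase, had the highest level per length, at 153 ± 62.4 counts per kb of coding sequence per 1000 plastid counts (SD over 47 libraries). psbA, the D1 reaction centre protein of photosystem II, followed at 90.5 ± 78.7 and rpl2, a ribosomal protein, at 54.7 ± 14.5. TIC214, a component of the protein import machinery also called ycf1, stood at rank 9 with 12.2 counts per kb per 1000, beside RBCL at 12.1. The SD of psbA was nearly as large as its mean, so its place below ATPB did not hold in every library. A stretch of ATPB and of TIC214, the loci with the highest mean shares beside psbA among named genes, is shown because the libraries were made by binding to A runs. The capitals mark the longest run of A in the coding sequence, at bases 47 to 56 of 1497 in ATPB and at bases 3365 to 3377 of 5361 in TIC214, from RefSeq TAIR10.1.
ATPB: tcgatacgtgAAAAAAAAAAcctgggacgt
TIC214: aaatggagAAAAAAAAAAAAAtactcttt
The runs are 10 and 13 bases long, against 4 bases in psbA. They are a description of the sequence, and whether they bear on the counts was not tested.

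Plastid counts made up 0.453% to 6.31% of library counts. Day 0 held 2.27%, 4.42% and 4.10% in replicates 1 to 3, against 2.80%, 3.96% and 2.36% in leaf, and the groups overlapped. The Day 0 libraries of the other sets of replicates, at 0.574% to 0.877%, all lay below leaf. In replicates 4 to 8 the share was 0.692%, 0.574%, 0.791%, 0.786% and 0.694% at Day 0, 2.60%, 6.31% and 2.77% at Day 2, 2.42%, 1.66% and 2.00% at Day 4 and 1.57%, 1.55% and 1.10% at Day 6. Every culture library of this course lay above every Day 0 library, and Day 2 replicate 5 was far above its fellows. The geometric mean was 2.34, 1.51 and 0.98 higher than Day 0 on the log2 scale at Day 2, Day 4 and Day 6, and the Day 2 value was 1.86 without replicate 5. Day 14 control libraries held 0.535%, 0.453% and 0.510%, all below the Day 0 libraries of replicates 1 to 3 (log2 ratio −2.79). The Day 0 libraries of the other sets of replicates lay much closer to these Day 14 values. The mitochondrial share moved with the plastid share in part: in replicates 4 to 8 it was 0.554% to 0.722% at Day 2 and 0.309% to 0.320% at Day 6, against 0.0345% to 0.0443% at Day 0, and its part in the plastid share was not tested.

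**Figure D1:**
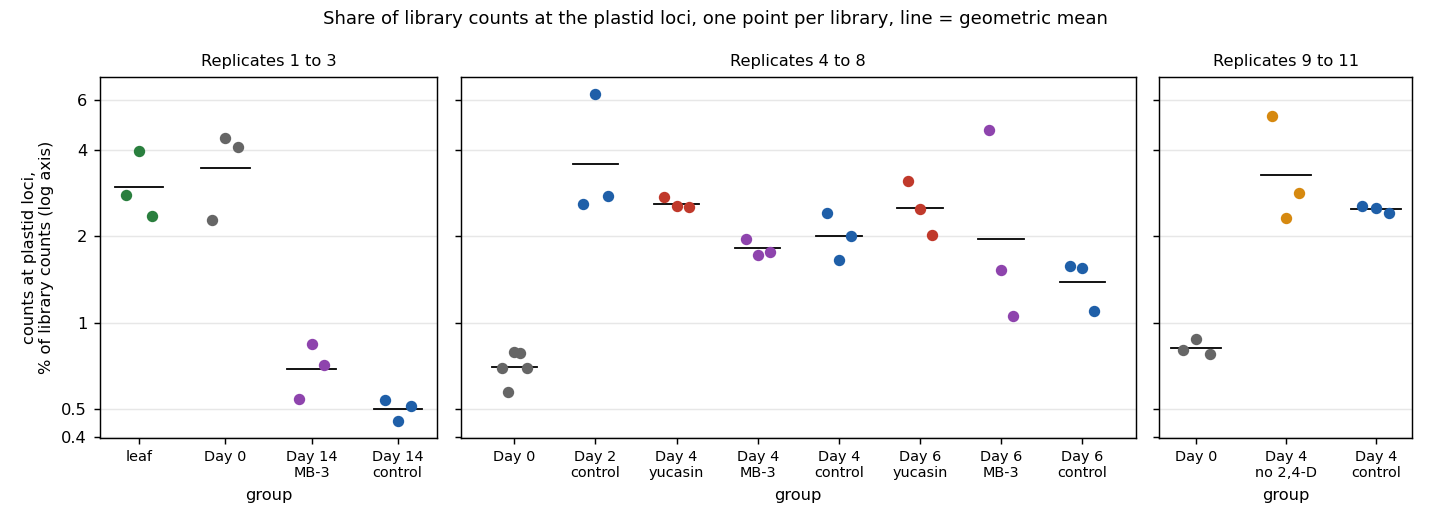
Share of library counts from plastid loci (percent, log axis) in each of the 47 libraries, with 1 panel for each set of replicates, points for libraries and a line at the geometric mean of each group. Day 14 control stands at 0.453% to 0.535%, against 2.27% to 4.42% at Day 0 of the same replicates, and Day 0 of the other sets stands at 0.574% to 0.877%.

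Few loci carried most of the plastid counts. By mean share over the 47 libraries, 5 loci made up the first 50% and 21 loci with at least 1% each summed to 83.8%, while 29 loci had less than 0.1% each. ATPB held 22.9% on average (4.58% to 42.0%), psbA 9.61% (0.610% to 40.4%), TIC214 6.55% (0.527% to 21.2%) and rpl2 4.51%, with the same counts at its repeat copy ATCG00830. psbG, which now goes by the name of NDH subunit K, held 3.72%, psbC and psbB, the inner antenna proteins of photosystem II, 3.39% and 2.52%, psbD, the D2 protein, 2.05%, RBCL 1.75% and psaA, a photosystem I core protein, 0.965%. In all, 9 loci had 0 counts in at least 1 library and none had 0 in all.

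The comparison of Day 0 with leaf asks what changed while protoplasts were made. On the scale of whole libraries (TMM-normalised, edgeR's quasi-likelihood test, log2 fold change over 2 with p and adjusted p under 0.01), 3 of 82 loci were called higher at Day 0 and 0 lower, where 12.7% of all loci were called higher and 20.9% lower. The third was ATCG00420 (2.07 ± 0.32), and the named ones were psbB (2.55 ± 0.65, log2 fold change ± SE, adjusted p = 0.00348) and psbG (2.04 ± 0.42, adjusted p = 0.000832). The TMM-normalised level of psbG was 5996, 6459 and 7575 CPM at Day 0, against 1379, 1580 and 1927 CPM in leaf, with no overlap. psbB stood at 3778, 11533 and 12672 CPM at Day 0, against 607, 1433 and 2734 CPM in leaf. psbB made up 8.73% to 14.8% of plastid counts in these Day 0 libraries. In Day 0 libraries of the other sets of replicates, which have no leaf samples, it made up 0.554% to 2.18%. The psbB result is thus limited to the Day 0 libraries of replicates 1 to 3. The 3 calls also rested on the scaling and on single replicates. With total counts in place of TMM, 0 loci were called higher and 4 lower, and leaving out replicate 1, 2 or 3 gave 7, 0 and 7 calls. The median log2 fold change of the members was 0.44 under TMM and −0.74 under total counts, which was 0.89 and 0.85 above the median of all loci.

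Relative to the sum of plastid counts, 0 loci were called higher at Day 0 and 5 lower. The 5 included RBCL (−2.17 ± 0.57, adjusted p = 0.00441), psbN (−2.35 ± 0.59, adjusted p = 0.00325), an assembly factor of photosystem II, and psaC (−2.05 ± 0.56, adjusted p = 0.00539), an iron-sulphur subunit of photosystem I. At an adjusted p under 0.01 alone 15 were lower, and the share of all loci at that threshold is not given here. An unadjusted p under 0.05 was found for 43 of 82 plastid loci, beside 14509 of all 20205 loci. On this scale 33.6% of all loci were called, the other loci being scaled by TMM. RBCL made up 1.01%, 0.636% and 0.621% of plastid counts at Day 0, against 5.18%, 4.22% and 0.804% in leaf. Leaf replicate 3 was the low library, and it was also low in psbA, with 2.26%, against 18.6% and 16.9% in the other leaf libraries. psbA at Day 0 held 2.91%, 1.91% and 1.96%, and its difference from leaf did not pass the test (−2.48 ± 0.87, adjusted p = 0.0218). RBCL, psbN, psaC and the other 2 (ATCG01070 and ATCG01100) lost their call both without replicate 1, when 6 other loci were called, and without replicate 2, when 0 were, and without replicate 3 there were 10 calls.

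In the course of culture each day was compared with Day 0. At Day 2, 32 of 86 loci (29 of 79 distinct rows) were called higher than Day 0 on the library scale and 0 lower, where 18.5% of all loci were called higher. They included psbA (2.65 ± 0.75, adjusted p = 0.00272), psaA (2.70 ± 0.60), psbD (2.15 ± 0.36), psaJ (2.09 ± 0.38), clpP (2.27 ± 0.29), a protease subunit, rpl2 (2.08 ± 0.41) and TIC214 (2.47 ± 0.30). With total counts in place of TMM 67 loci were called, but the median of all loci also moved, by 0.80. Relative to that median the members stood at 1.58 under TMM and 1.53 under total counts. Day 2 replicate 5 carried part of this: without it 19 loci were called, and psbA, psaA, psbD, psaJ, clpP and rpl2 no longer passed. psbA was also lost without replicate 4 (adjusted p = 0.0120) and TIC214, at a change of 2.00 just under the fold threshold, without replicate 6. Within the plastid total, 3 loci were called higher and 1 lower at Day 2, where 18.3% and 4.78% of all loci were. The lower one was psbI, a small photosystem II subunit counted 11 to 35 times per Day 2 library (−2.08 ± 0.46, adjusted p = 0.000246). Leaving out replicate 4, 5 or 8 took psbI below the fold threshold, at −1.97, −1.72 and −1.80.

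At Day 4, 31 loci were called higher and 0 lower on the library scale, where 25.3% of all loci were called higher (50 loci with total counts), and 23 higher and 4 lower within the plastid total, where 25.2% and 13.1% were. At Day 6 the counts were 24 and 3 on the library scale, where 27.5% and 16.3% of all loci were called, and 26 and 3 within the total, where 27.5% and 16.3% of all loci were called too. Within the total, higher calls were thus near the share over all loci at both days and lower calls below it. With total counts in place of TMM, Day 6 had 39 calls higher and 0 lower. The median of all loci moved as well with total counts, by 0.97 at Day 4 and 1.11 at Day 6. Relative to that median the members stayed at 1.06 at Day 4 on both scalings. At Day 6 they stood at 0.27 under TMM and 0.28 under total counts. TIC214 was one of the named loci that rose. It made up 1.61%, 1.37%, 1.01%, 1.20% and 1.35% of plastid counts at Day 0, 1.60%, 1.33% and 5.08% at Day 2, 5.62%, 10.2% and 7.99% at Day 4 and 12.5%, 9.96% and 11.3% at Day 6. Day 2 overlapped with Day 0, and the Day 4 and Day 6 libraries all lay above both. Its change within the plastid total was 2.60 ± 0.30 at Day 4 (adjusted p = 1.7e-08) and 3.11 ± 0.30 at Day 6 (adjusted p = 7.69e-10).

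ycf3, an assembly factor of photosystem I, rose within the total by 2.69 ± 0.32 at Day 4 and 2.48 ± 0.33 at Day 6, from only 4 to 8 counts per Day 0 library. ATCG01110, which has no name here, held 0.514% to 0.821% at Day 4, against 0.0371% to 0.0489% at Day 0 (3.91 ± 0.30). The pair ATCG00870 and ATCG01270 had 42 to 70 counts at Day 4, against 0, 0, 2, 0 and 0 at Day 0, and no fold is given for it.

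psbG moved the other way. Its share was 7.12%, 9.87%, 7.55%, 8.06% and 9.21% at Day 0, 4.22%, 3.34% and 4.50% at Day 2, 1.50%, 2.17% and 1.54% at Day 4 and 1.19%, 1.12% and 1.31% at Day 6, and no library of a later day overlapped with one of an earlier day. The change within the total was −2.27 ± 0.25 at Day 4 (adjusted p = 8.6e-09) and −2.79 ± 0.26 at Day 6 (adjusted p = 3.15e-10). On the library scale psbG passed at Day 6 (−2.91 ± 0.24) and not at Day 4 (−1.75 ± 0.22). With total counts the Day 6 value was −1.80. ATCG00420 behaved likewise, with 0.611% to 0.636% at Day 6, against 3.10% to 5.76% at Day 0 (−2.88 ± 0.27 within the total). ATPB made up 28.1% to 42.0% of plastid counts at Day 0, 26.1% to 40.0% at Day 2, 15.2% to 26.2% at Day 4 and 14.8% to 21.0% at Day 6. Of the 15 psb genes without psbG, 0 were called at Day 6 on either scale, with a median log2 change of −0.85 within the total, against 1.82 for the 55 loci with no name that were tested.

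**Figure D2:**
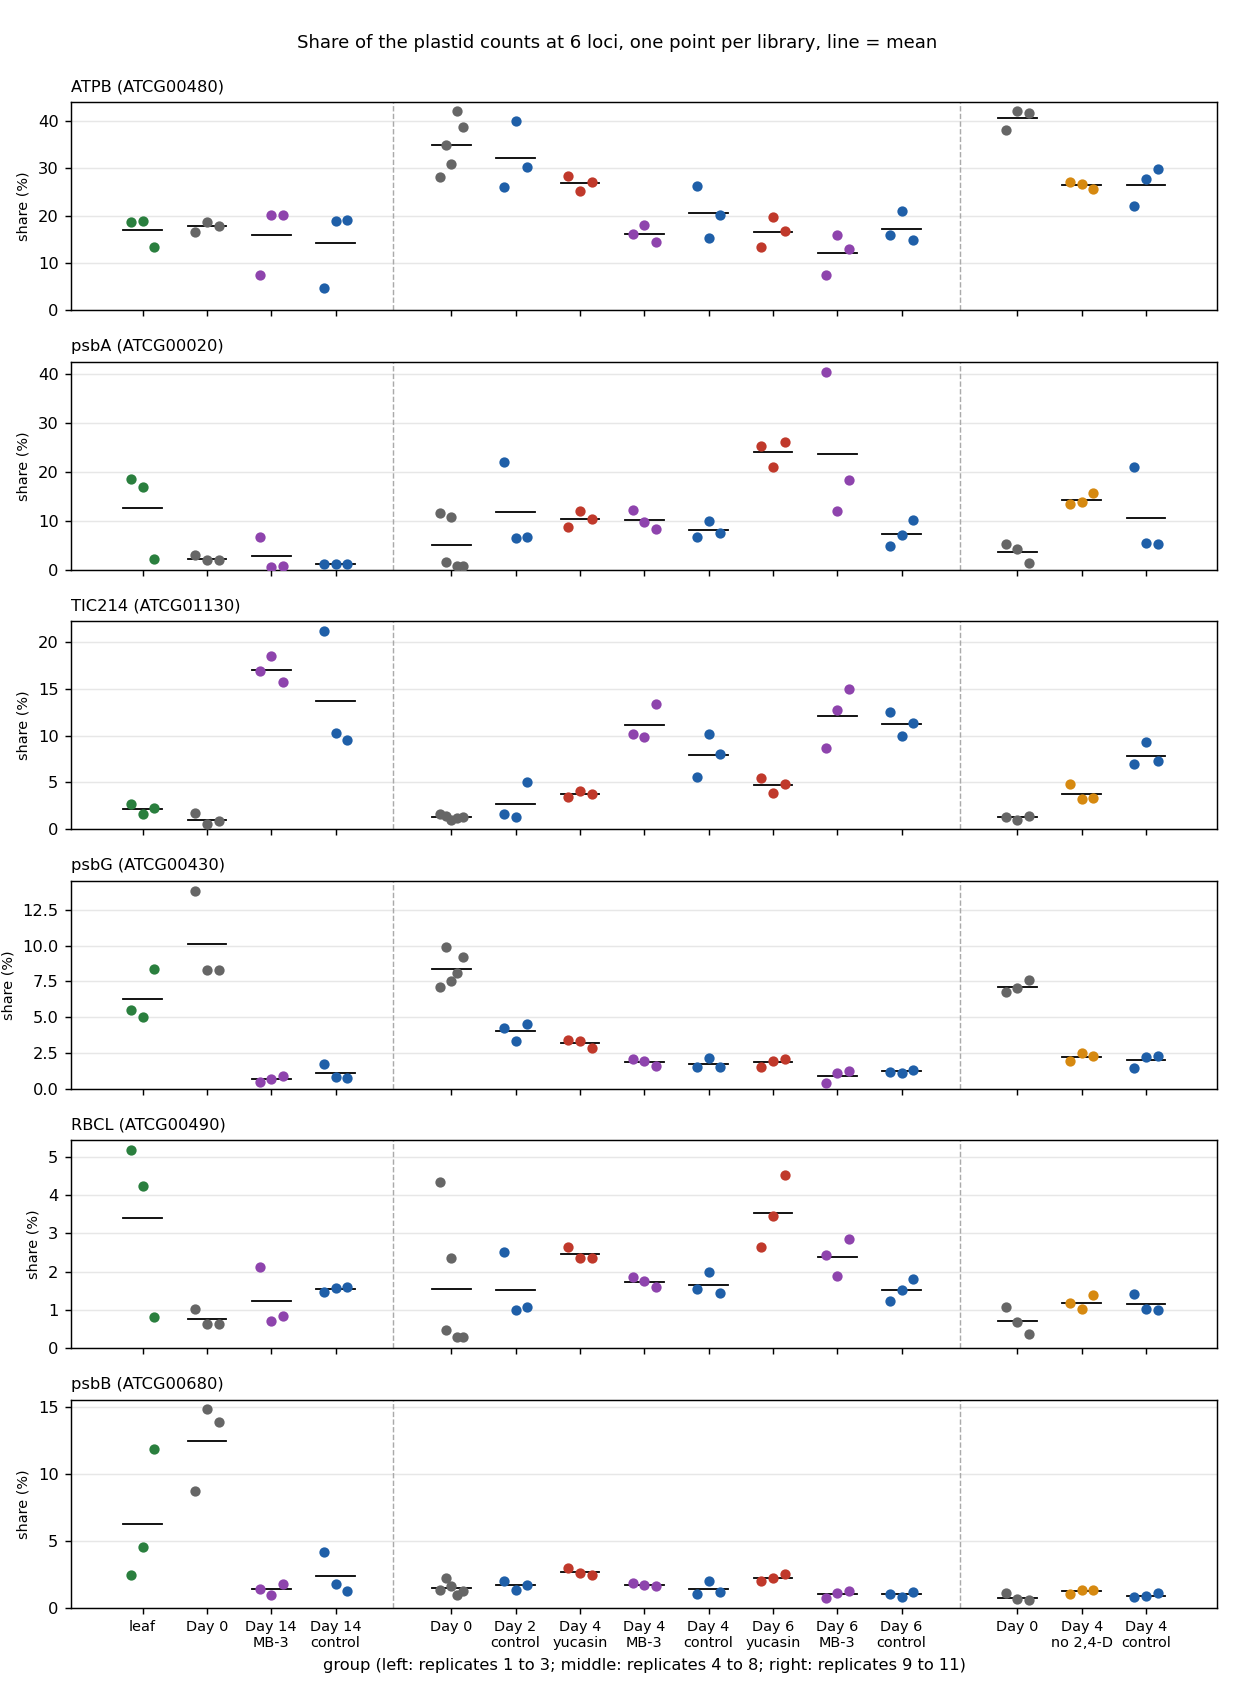
Share of plastid counts (percent) held by ATPB, psbA, TIC214, psbG, RBCL and psbB in each library, with a point for each library, a line at the group mean and dashed lines between the sets of replicates. TIC214 stands at 9.96% to 12.5% at Day 6 control, against 1.01% to 1.61% at Day 0, in replicates 4 to 8, and psbG at 1.12% to 1.31% at Day 6 control, against 7.12% to 9.87% at Day 0.

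Day 4 was also sampled in replicates 9 to 11, with their own Day 0 libraries. The plastid share of library counts was 2.55%, 2.52% and 2.40% at Day 4, against 0.804%, 0.877% and 0.776% at Day 0 (log2 ratio 1.61, no overlap). Of 83 loci tested, 30 were called higher on the library scale and 0 lower, where 24.0% of all loci were called higher. Of these, 27 were also called in replicates 4 to 8, which is 90% of the 30 and 87.1% of the 31. With identical pairs counted a single time, the 30 and 31 are 28 and 29 distinct rows. The overlap over all loci is not given here. Within the plastid total 18 loci were called higher, where 23.9% of all loci were, and 15 of them were shared, 83.3% of the 18 and 65.2% of the 23. TIC214 held 6.97%, 9.29% and 7.24% at Day 4, against 1.34%, 1.03% and 1.42% at Day 0 (2.63 ± 0.30 within the total, adjusted p = 2.84e-05). ycf3 rose by 2.45 ± 0.40 (adjusted p = 0.000284). psaA passed here (2.00 ± 0.40, adjusted p = 0.00112) but not without replicate 10 or 11 (1.88 and 1.73). psbG held 1.47%, 2.22% and 2.29% at Day 4, against 6.75%, 7.03% and 7.62% at Day 0, with no overlap, and its change of −1.84 ± 0.26 did not reach the fold threshold.

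At Day 14, set against Day 0 of replicates 1 to 3, most plastid loci were lower in the library. Of 82 tested, 53 were called lower (49 of 75 distinct rows) and 0 higher, where 14.1% of all loci were called lower. With total counts 29 were called lower, and the median of all loci moved by 1.36. Relative to that median the members stood at −2.80 under TMM and −2.81 under total counts. Of the named loci 25 were called lower. They included 13 of 14 psb genes tested and all 4 psa genes tested. psbB stood at 171, 61.9 and 47.2 CPM at Day 14, against 3778, 11533 and 12672 CPM at Day 0 (−6.65 ± 0.78, adjusted p = 7.27e-06). psbA stood at 49.2, 40.8 and 40.3 CPM at Day 14, against 1259, 1484 and 1792 CPM at Day 0 (−5.12 ± 0.93, adjusted p = 0.000295). The size of these falls depends on the Day 0 libraries used. In Day 0 libraries of replicates 9 to 11, scaled within their own set, psbB stood at 130, 87.1 and 64.0 CPM, a range that overlaps with Day 14. psbA stood there at 615, 579 and 158 CPM, above Day 14. ATPB fell by 4.60 ± 0.68 on the log2 scale, psaA by 4.10 ± 0.48, rpl2 by 3.48 ± 0.39 and RBCL by 3.09 ± 0.57, of which RBCL lost its call under total counts (−1.72). TIC214 was outside this pattern, with 864, 368 and 357 CPM at Day 14, against 753, 410 and 757 CPM at Day 0, and the groups overlapped. Its log2 change was −0.27 ± 0.38 under TMM, and it was 1.11 under total counts, so its direction depends on the scaling. TIC214 was not alone in this. Other loci with small changes under TMM that were not called included ATCG01000 (−0.12 ± 0.33), ATCG01100 (−0.21 ± 0.65) and ATCG00650 (−0.26 ± 0.31).

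Within the plastid total, 32 loci (28 distinct rows) were called higher at Day 14 and 5 lower, where 19.9% and 13.9% of all loci were. TIC214 rose by 3.73 ± 0.47 (adjusted p = 1.25e-05) and ycf3 by 2.47 ± 0.53. psbG fell by 3.21 ± 0.44 on the log2 scale (adjusted p = 2.46e-05), psbB by 2.38 ± 0.60 and psaJ, a small photosystem I subunit, by 2.17 ± 0.52. The call of psbB was lost without replicate 2 or 3 and that of psaJ without replicate 2. The fall of psbB starts from Day 0 libraries with 8.73% to 14.8% psbB, where Day 0 libraries of the other sets of replicates held 0.554% to 2.18%. psbN was called higher (2.21 ± 0.63) but not without replicate 1 or 2. TIC214 made up 21.2%, 10.3% and 9.59% of plastid counts at Day 14, against 1.74%, 0.527% and 0.828% at Day 0. Replicate 1 of Day 14 stood apart, with the highest TIC214 share and an ATPB share of 4.58%, against 18.7% and 19.1% in the other Day 14 control libraries.

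**Figure D3:**
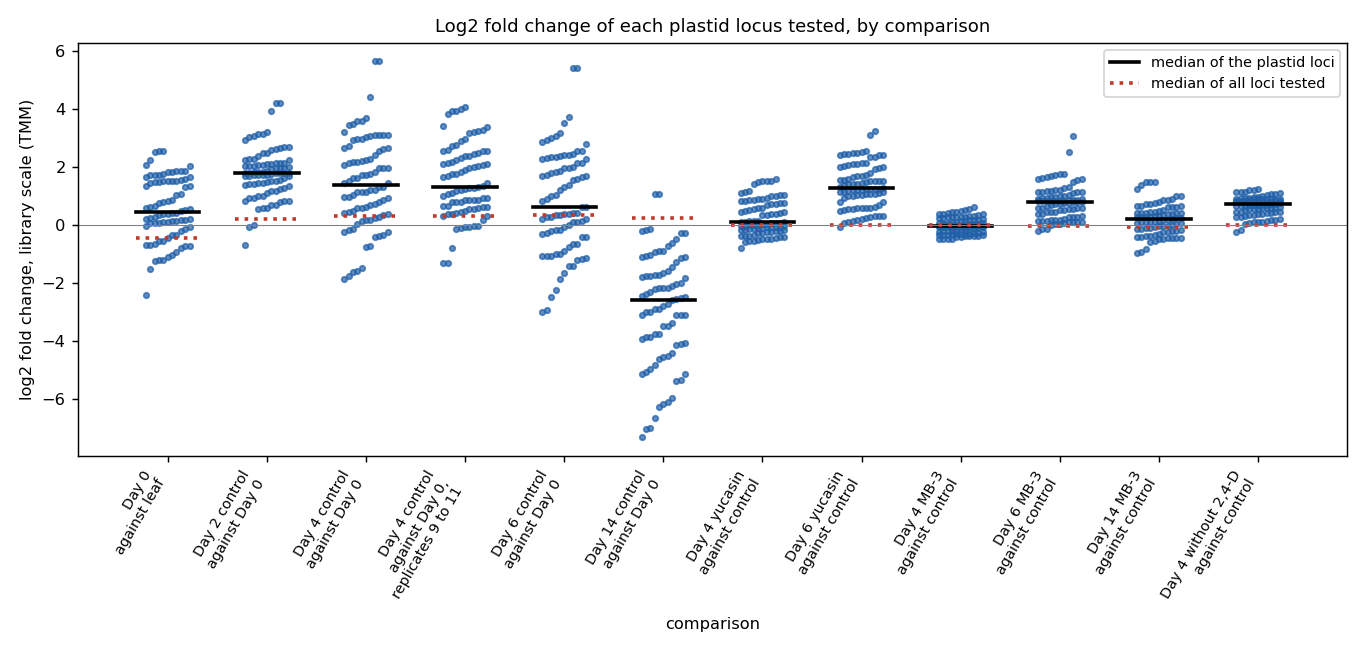
Log2 fold change (TMM scale) of each plastid locus tested, by comparison, with a black line at the median of the plastid loci and a red dotted line at the median of all loci. The plastid median stands at 1.80, 1.38 and 0.61 at Day 2, Day 4 and Day 6 against Day 0, and at −2.57 for Day 14 against Day 0.

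Many plastid loci stood higher with yucasin at Day 6. On the library scale 19 of 86 loci were called higher with yucasin than in Day 6 control cultures and 0 lower, where 7.5% of all loci were called higher, and 12 of the 19 are named. These are RBCL, psaA, psaB, psaJ, psbA, psbB, psbE, psbF, psbH, psbJ, psbN and psbTC, and the other 7 have no name here. Of the 31 named loci, 15 are psb genes other than psbG, 5 are psa genes and 1 is RBCL, so names of this kind were most of those that could be called. psbA stood at 8567, 5769 and 5368 CPM with yucasin, against 573, 854 and 840 CPM in control (3.12 ± 0.92, adjusted p = 0.00544). RBCL stood at 897, 948 and 935 CPM, against 146, 180 and 151 CPM (2.54 ± 0.73, adjusted p = 0.00459). psbB stood at 685, 608 and 523 CPM, against 125, 98.4 and 95.2 CPM (2.51 ± 0.31, adjusted p = 3.54e-07). In each of these the groups did not overlap. TIC214, at 1847, 1076 and 987 CPM with yucasin and 1492, 1189 and 947 CPM in control, overlapped (0.11 ± 0.34).

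The calls at Day 6 depended on size and scaling. At an adjusted p under 0.01 alone, 50 loci were higher with yucasin, where 24.7% of all loci were. With total counts 3 loci were called, and the median of all loci moved by −0.48, while the members' median stood 1.25 above it on both scales. psbA and RBCL lost their call without replicate 6, 7 or 8, and psaA and psaB without replicate 7 or 8 (adjusted p 0.0124 to 0.0220). psaJ lost it without replicate 6 (1.82), psbN without replicate 7 (adjusted p = 0.0112) and psbH without replicate 8 (1.99), whereas psbB, psbE, psbF and psbJ kept theirs in each case. psbTC was counted 14, 4 and 11 times with yucasin, against 1, 1 and 3 times in control. Within the plastid total 0 loci were called by edgeR and 0 by DESeq2, with 39 of 86 at an unadjusted p under 0.05, where 12.8% of all loci were called and 62.9% had an unadjusted p under 0.05. The 7 genes of the PEP group (psbA, RBCL, psbB, psbC, psbD, psaA, psaB) made up 34.7% to 42.2% of plastid counts with yucasin, against 11.7% to 18.8% in control. Much of this was psbA: the other 6 made up 12.3% to 16.2% with yucasin, against 6.80% to 8.72% in control. TIC214 made up 5.43%, 3.92% and 4.79% with yucasin, against 12.5%, 9.96% and 11.3% in control (−1.26 ± 0.34, adjusted p = 0.00279), and missed only the fold threshold. The plastid share of library counts was 3.13%, 2.50% and 2.03% with yucasin, against 1.57%, 1.55% and 1.10% in control, with no overlap. The mitochondrial share was 1.93% to 2.11%, against 0.309% to 0.320%, guard cell markers summed to 54.9 to 66.0 CPM, against 10.3 to 19.4 CPM, and epidermis markers to 7.50 to 18.5 CPM, against 1.37 to 2.11 CPM. Of those tested, 3 of 4 and 2 of 2 were called higher. The part of these in the plastid result was not tested.

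At Day 4 no locus was called with yucasin by edgeR or by DESeq2 on either scale, where 3.61% of all loci were called, and 14 of 86 loci on the library scale and 39 within the total had an unadjusted p under 0.05, where 35.2% and 35.4% of all loci did. The PEP group made up 24.5% to 27.1% of plastid counts with yucasin, against 16.2% to 20.9% in control. Without psbA it made up 14.4% to 15.9%, against 8.74% to 11.0%. TIC214 made up 3.41%, 4.08% and 3.76%, against 5.62%, 10.2% and 7.99%, with no overlap. psbF was higher by 1.53 ± 0.38 (adjusted p = 0.00451) without reaching the fold threshold. The plastid share of library counts was 2.74%, 2.55% and 2.52% with yucasin, against 2.42%, 1.66% and 2.00%. In the test of whether the yucasin effect differed between Day 6 and Day 4, 0 of 86 loci passed all thresholds, where 3.4% of all loci did. On the library scale 4 loci, an identical pair among them, had an adjusted p under 0.01, and within the plastid total 0 did. The share of all loci at that threshold is not given here. On the library scale 33 loci had an unadjusted p under 0.05, where 36.7% of all loci did.

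**Figure D4:**
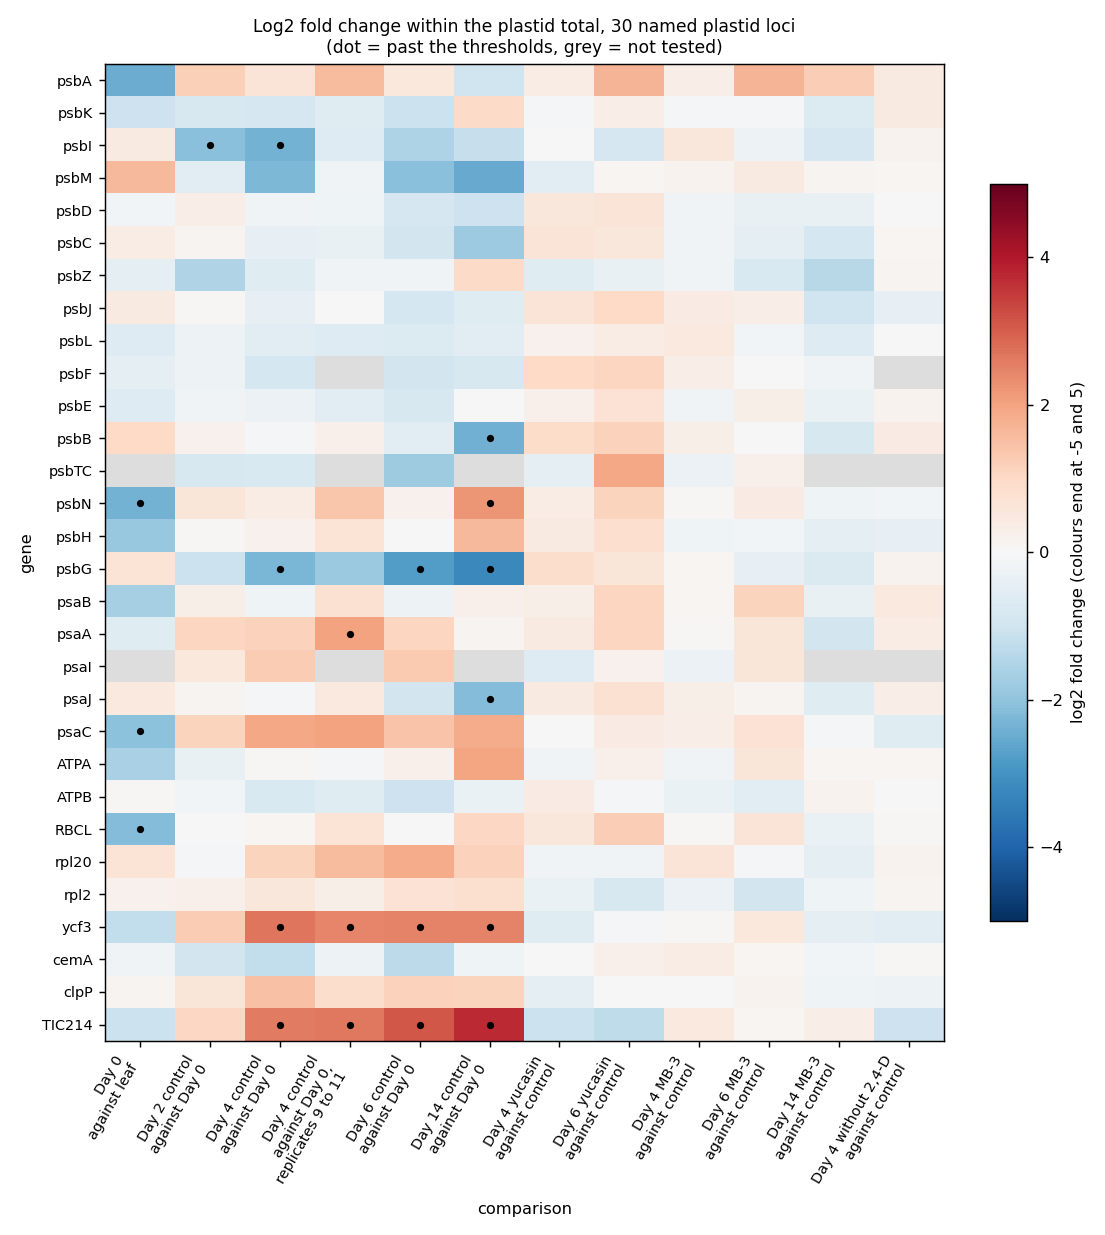
Log2 fold change within the plastid total for 30 of the 31 named loci (rows) in 12 comparisons (columns), with a dot where all thresholds were passed and grey where a locus was not tested. TIC214 and ycf3 carry dots at Day 4, Day 6 and Day 14 against Day 0, and no treatment column carries a dot.

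With MB-3 no plastid locus was called at any day by edgeR. At Day 4 the levels lay close to control: 0 loci on the library scale and 1 within the total had an unadjusted p under 0.05, where 20.8% of all loci did on each scale, DESeq2 called 0, and 1.3% of all loci were called. TIC214 held 10.1%, 9.83% and 13.4% of plastid counts with MB-3, against 5.62%, 10.2% and 7.99% in control, and the groups overlapped. At Day 6, where 4.22% of all loci were called, 42 of 86 loci on the library scale and 17 within the total had an unadjusted p under 0.05, where 38.2% and 38.1% of all loci did, and DESeq2 called 2 on the library scale, psbA and psaB. psbA stood at 16164, 1523 and 1550 CPM with MB-3, against 573, 854 and 840 CPM in control (3.08 ± 0.92, adjusted p = 0.0139 by edgeR). Replicate 6 was by far the highest: psbA made up 40.4% of its plastid counts, against 12.0% and 18.3% in the other MB-3 libraries. The plastid share of library counts was 4.72%, 1.52% and 1.06% with MB-3, against 1.57%, 1.55% and 1.10% in control, so the log2 ratio of 0.50 became −0.04 without replicate 6. rpl2 fell within the total, by 0.90 ± 0.23 on the log2 scale (adjusted p = 0.00526), short of the fold threshold, with 2.45%, 4.58% and 2.49% with MB-3, against 6.52%, 5.84% and 5.46%.

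At Day 14, where 5.14% of all loci were called, 0 plastid loci were called by either tool, with 7 of 82 at an unadjusted p under 0.05 on the library scale and 13 within the total, where 35.3% of all loci were on each scale. The plastid share of library counts was 0.543%, 0.845% and 0.713% with MB-3, against 0.535%, 0.453% and 0.510% in control. The groups did not overlap, but the gap closed when identical pairs were counted a single time. TIC214 made up 16.9%, 18.6% and 15.8% with MB-3, against 21.2%, 10.3% and 9.59%. psbA made up 6.75%, 0.610% and 0.768%, against 1.21%, 1.14% and 1.08%, and its log2 change within the total was 1.24 with replicate 1 and −0.69 without it.

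MB-3 and yucasin, which have different targets, were set against each other on the same days, a comparison added after the data were seen. At Day 6, ATCG00420 alone was called higher with yucasin than with MB-3 (2.02 ± 0.27 on the library scale), where 3.29% of all loci were called higher, and 0 loci within the total. That call was lost with total counts and with the looser filter on low counts (0 calls each), and leaving out 1 replicate gave 0 to 6 calls. psbB was higher with yucasin by 1.75 ± 0.30 (adjusted p = 8.19e-05). TIC214 was lower within the total with yucasin, by −1.37 ± 0.34 at Day 6 (adjusted p = 0.00261) and −1.57 ± 0.34 at Day 4 (adjusted p = 0.00289), with no overlap on either day. At Day 4, 0 loci were called by edgeR or DESeq2, where 1.23% of all loci were called, with 19 of 86 loci at an unadjusted p under 0.05 on the library scale, where 29.3% of all loci were.

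Leaving out 2,4-D gave 0 calls at Day 4 by edgeR and by DESeq2 on both scales, where 3.39% of all loci were called, with 35 of 83 loci at an unadjusted p under 0.05 on the library scale and 10 within the total, where 41.3% and 41.2% of all loci were. The plastid share of library counts was 5.28%, 2.33% and 2.84% without 2,4-D, against 2.55%, 2.52% and 2.40% in control. The groups overlapped, and the log2 ratio of 0.39 was 0.06 without replicate 9. On the library scale 81 of 83 loci had a log2 fold change above 0 and the median was 0.72, against 0.02 over all loci. TIC214 made up 4.88%, 3.19% and 3.28% without 2,4-D, against 6.97%, 9.29% and 7.24%, with no overlap (−1.05 ± 0.28 within the total, adjusted p = 0.0283). psbA made up 13.5%, 13.9% and 15.6%, against 21.0%, 5.38% and 5.19% in control, and control replicate 9 was the high library. The mitochondrial share was 1.27% to 1.43% without 2,4-D, against 0.584% to 1.09%, and its part was not tested.

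Among the Day 0 libraries of replicates 4 to 8, psbA, RBCL and psaA stood high or low together. psbA made up 11.6% and 10.8% of plastid counts in replicates 4 and 6, but 1.63%, 0.682% and 0.774% in replicates 5, 7 and 8. RBCL made up 4.35% and 2.35% in replicates 4 and 6, but 0.466%, 0.301% and 0.298% in the others. psaA followed the same order, with 1.04% and 0.809%, but 0.204%, 0.104% and 0.105%. ATPB was lowest in the same libraries, at 28.1% and 30.8%, with 35.0%, 42.0% and 38.7% in the others. These shares are tied, since a higher share of psbA lowers all others. psbB did not follow psbA, with 1.30% and 1.62% in replicates 4 and 6 and 2.18%, 0.960% and 1.24% in the others. psbB was also among the loci with a higher share in the Day 0 libraries of replicates 1 to 3, at 8.73%, 14.8% and 13.9%, where the other 8 Day 0 libraries held 0.554% to 2.18%.

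Nuclear genes for plastid transcription were followed on the library scale. Of 12 genes for proteins bound to PEP, 7 were called lower at Day 0 than in leaf and 0 higher (median −2.18, against −0.45 over all loci, of which 20.9% were called lower). In culture 6, 4 and 6 of 12 were called higher than Day 0 at Day 2, Day 4 and Day 6, and 7 of 12 at Day 4 in replicates 9 to 11. Of all loci 18.5%, 25.3%, 27.5% and 24.0% were called higher in these 4 comparisons. At Day 14, 3 of 12 were called higher. There 19.9% of all loci were called higher on the scale of the plastid total, with nuclear loci scaled by TMM. In each of these comparisons 0 of 12 were called lower. FSD3, a superoxide dismutase bound to PEP, stood at 0 to 0.746 CPM at Day 0, 9.52 to 16.0 CPM at Day 2, 10.9 to 13.6 CPM at Day 4 and 9.46 to 12.6 CPM at Day 6 in replicates 4 to 8. PTAC12 stood at 13.4 to 18.3 CPM at Day 6, against 0.724 to 1.95 CPM at Day 0 (3.46 ± 0.21, adjusted p = 1.27e-13).

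Of the 6 sigma factor genes, 4 (SIG1, SIG2, SIG3 and SIG6) were called lower at Day 0 than in leaf, beside the 20.9% of all loci. In culture SIG5, a stress- and light-responsive sigma factor, was called lower than Day 0 at every day: it stood at 67.3 to 94.0 CPM at Day 0, 14.8 to 28.1 CPM at Day 2, 4.05 to 5.66 CPM at Day 4 and 2.54 to 3.42 CPM at Day 6 (−4.76 ± 0.26 at Day 6, adjusted p = 2.22e-14). SCA3, the plastid phage-type polymerase, was called lower at Day 4 (−3.20 ± 0.18) and Day 6 (−3.01 ± 0.18) and at Day 14 (−2.49 ± 0.29). The other phage-type gene listed, AT5G15700, did not follow it. At Day 4 in replicates 9 to 11 both were called, SCA3 lower and AT5G15700 higher. At Day 2 the only phage-type gene called was higher than Day 0. Of 7 genes for plastid RNA processing and decay, CSP41A and CSP41B, which encode RNA-binding proteins of the chloroplast, were called lower in every culture comparison with Day 0 (−3.94 ± 0.30 and −3.49 ± 0.27 at Day 4). At Day 14, 4 of the 7 were called, these 2 lower and the other 2 higher. PNP, the polynucleotide phosphorylase that adds and removes tails, was called lower at Day 0 than in leaf (−2.76 ± 0.28, adjusted p = 1.93e-06) and was not called at later days. With total counts in place of TMM, an alternative added after the data were seen, no called gene of these lists changed sign. SCA3 lost its call at Day 6 (−1.89), at Day 14 (−1.09) and at Day 4 in replicates 9 to 11 (−1.70), SIG5 at Day 2 (−1.24) and CSP41A and CSP41B at Day 2 (−1.23 and −1.33). PNP was then called higher at Day 14 (2.72), and 11 of 12 PEP-bound protein genes were called lower at Day 0 than in leaf.

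No gene of these lists was called in a treatment comparison. With yucasin at Day 6 all 12 PEP-bound protein genes had lower levels at an adjusted p under 0.01 (median −1.15), where 22.6% of all loci were lower at that threshold. PTAC12 stood at 5.07 to 7.09 CPM with yucasin, against 13.4 to 18.3 CPM in control (−1.32 ± 0.20, adjusted p = 4.55e-06). Their median was −0.01 with yucasin at Day 4, −0.38 with MB-3 at Day 6 and −0.85 without 2,4-D.

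**Figure D5:**
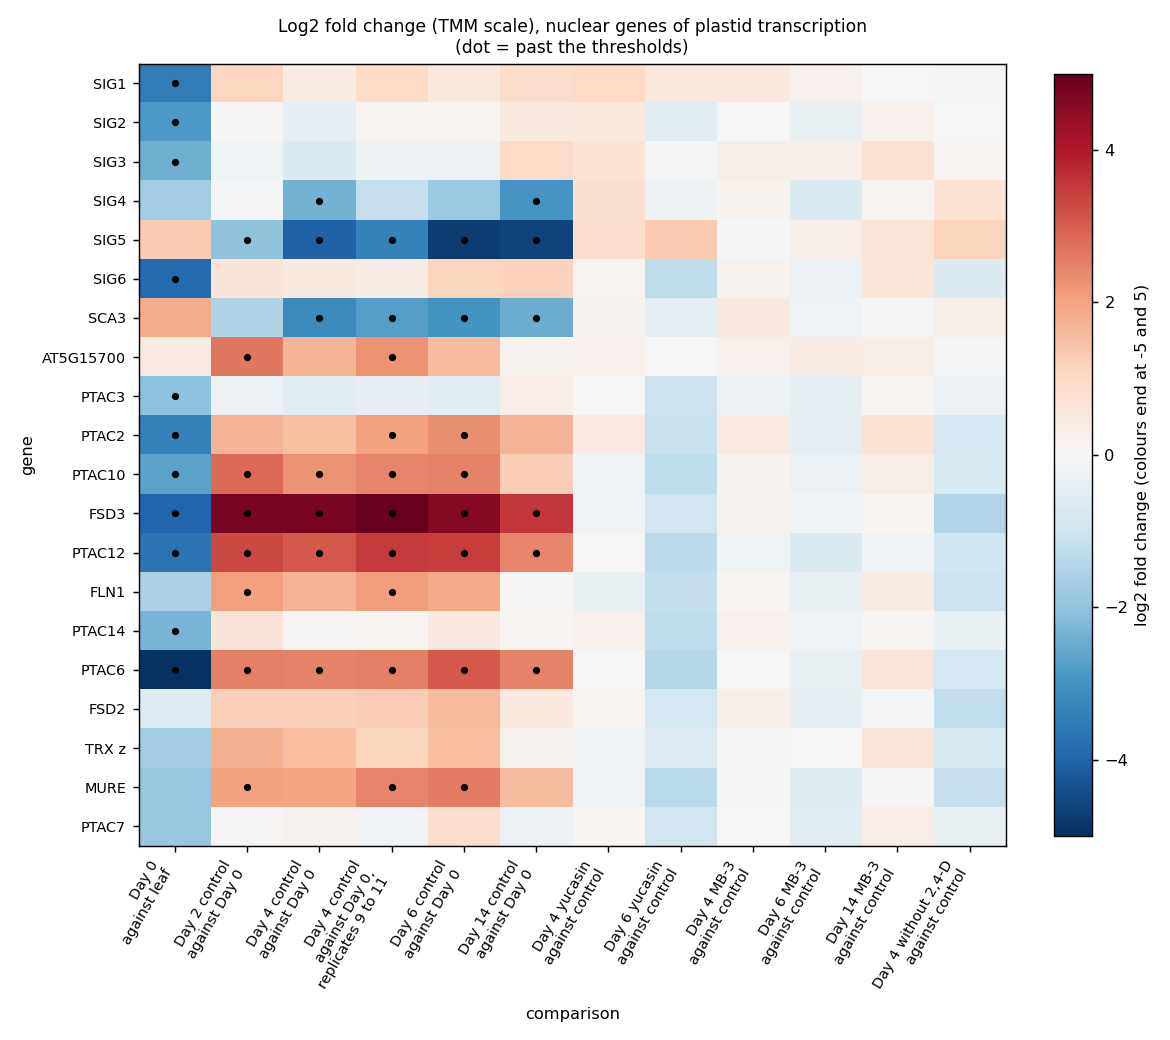
Heat map of the log2 fold change (TMM scale, colours ending at −5 and 5) of nuclear genes (rows) for sigma factors, phage-type polymerases and PEP-associated proteins in 12 comparisons (columns), with a dot where all thresholds were passed. SIG5 and SCA3 stand at −4.76 and −3.01 at Day 6 against Day 0, and FSD3 and PTAC12 at 4.61 and 3.46.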

How the data were processed

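Stranded mRNA libraries were sequenced as single reads, and the authors aligned them with Bowtie 0.12.9 to TAIR10; the counting tool and its strand setting are not given in the sources used here. The deposited values are raw read counts per splice variant, and the lowest-numbered variant of each locus was used. Where overlapping plastid genes share reads, their counts cannot be told apart.

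Loci with low counts were removed by edgeR's filter in each set of replicates. Fold changes came from edgeR 4.0.16 (R 4.3.3), with TMM factors and the quasi-likelihood test over all loci of a set and Benjamini-Hochberg adjustment. The library scale used TMM factors, and the scale of the plastid total divided plastid loci by the sum of ATCG counts. A call needed an absolute log2 fold change over 2 with p and adjusted p under 0.01. The plastid share has no test. DESeq2 1.42.0 was an alternative. Scripts were tested on simulated data.

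Named loci were the locus with the highest mean share in each class and TIC214, and in each comparison the 3 largest and 3 smallest changes within the plastid total among loci with a mean of at least 10 counts; others are summarised, and some were named after their values were seen. Members, gene lists and tests were chosen with earlier results of these data known. The values of 1 named plastid locus are not reported here. A list of nuclear rRNA loci could not be used, since none is listed in the counts used here.

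Replicate numbers were taken to pair samples where every same-numbered pair deviated together (correlation over 0.1): Day 4 yucasin (0.14 to 0.36), Day 4 MB-3 (0.18 to 0.41), Day 6 MB-3 (0.21 to 0.33) and the cultures without 2,4-D (0.25 to 0.54), each against its control, and yucasin against MB-3 at Day 6 (0.24 to 0.30) and Day 4 (0.17 to 0.37). The main fits have no block.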

Additional observations from a re-analysis of the deposited data

Results flagged for a closer look

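psbA made up 21.0% of plastid counts in Day 4 control replicate 9, far above the next of the 6 Day 4 control libraries at 9.89% (gap over range 0.703, against a critical value of 0.625). It was the only one of 16 sets of libraries with such a sample. Chance gives such a sample in about 1 of 20 sets, so 1 in 16 is near that rate. The set pools Day 4 controls of replicates 4 to 6 and 9 to 11. Single libraries high in psbA were also seen with MB-3 at Day 6 and Day 14.

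For 4 loci with no name the yucasin effect on the library scale was larger at Day 6 than at Day 4 in an interaction test by edgeR: ATCG00190 (difference 1.37 ± 0.34, adjusted p = 0.0053), ATCG00520 (1.57 ± 0.42, adjusted p = 0.00837) and the identical pair ATCG00860 and ATCG01280 (1.52 ± 0.31, adjusted p = 0.00128). None of these differences reached the fold threshold, and within the plastid total 0 loci had an adjusted p under 0.01 in this test. The share of all loci with an adjusted p under 0.01 is not given here.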

How the results depend on the processing

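Scaling mattered most on the library scale. With total counts in place of TMM, 67 loci were called at Day 2 (32 with TMM), 50 at Day 4 (31), 47 at Day 4 in replicates 9 to 11 (30), 29 at Day 14 (53) and 3 with yucasin at Day 6 (19). The median of all loci moved too, in this order by 0.80, 0.97, 1.06, 1.36 and −0.48. TMM from nuclear loci alone left 1 of 3 calls between Day 0 and leaf. Within the plastid total that comparison had 10 calls without psbA in the total and 9 by DESeq2, against 5. With MB-3 at Day 6, 2 loci were called by DESeq2 and 2 with no filter beyond 1 count, against 0. Yucasin against MB-3 at Day 6 gave 0 calls with total counts and 0 with that looser filter, against 1.

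Leaving out 1 replicate gave 0 to 7 calls between Day 0 and leaf on the library scale and 0 to 10 within the plastid total, 19 to 38 and 2 to 6 at Day 2, 0 to 1 with MB-3 at Day 14, 0 to 3 with MB-3 at Day 6 and 0 to 6 for yucasin against MB-3 at Day 6. The log2 ratio of the plastid share at Day 2 ranged between 1.86 and 2.57. TIC214 turned direction on the library scale at Day 14 (−0.27; 1.11 with total counts, −0.68 to 0.082 with 1 replicate left out) and with yucasin at Day 6 (0.11; −0.38 with total counts, −0.11 to 0.22 with 1 replicate left out). With MB-3 at Day 14, within the plastid total, psbA ranged between −0.69 and 1.71 and ATCG00540 between −2.01 and 0.20. The cause of these changes was not tested.

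With the replicate number as a block, 20 loci were called at Day 2, against 32; there the numbers do not pair the samples. The block moved no other count of calls by over 1.5 times, in the paired comparisons included.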
